A study of Mus musculus with 3 samples.

Results

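Semaphorins are guidance proteins, and plexins are the receptors that most of them bind. Genes of both families, of the neuropilin co-receptors and of a few further receptors were followed in bone marrow-derived dendritic cells (BMDC), the dendritic cells that grow out of cultured mouse marrow. The genes were chosen by symbol: semaphorins by class number and letter, plexins by letter and number, and Nrp1, Nrp2, Plxdc1, Plxdc2, Timd2 and Cd72. This gave 35 genes with 37 probe sets, of 19938 genes measured with a probe set of their own. The alias Cd100 was also sought and found no probe set, since that protein is listed as Sema4d.

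All 3 samples were BMDC from marrow of the inbred strain C57BL/6J, seeded at 2000000 cells per well and differentiated for 9 days with GM-CSF and IL-4 at 20 ng/ml each. They form 1 group, with no other genotype, treatment or time, and 1 Affymetrix array was hybridised per sample. Separate mice or separate wells are not named in the labels, so the SD over the 3 arrays may be technical, and their number limits the precision of every value. With 1 group there was no contrast to test. The data describe which of these genes were detected and how far the arrays differed.

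Semaphorins are secreted (class 3), span the membrane (classes 4, 5 and 6) or are held by a lipid anchor (class 7). Plexins carry a domain in the cytoplasm that acts on small GTPases of the Ras family, and they change adhesion and the actin skeleton. Secreted semaphorins mostly need a neuropilin to reach a plexin, whereas membrane semaphorins bind plexins directly. In the immune system, Sema4a, Sema4d and Sema7a are known for contacts between dendritic cells, macrophages and T cells, and plexin A1 for the movement and T cell contact of dendritic cells.

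Detection was judged against 1210 probe sets of olfactory and vomeronasal receptors, which these cells are not known to use. A gene counts as above background when all 3 of its log2 values pass the 95th percentile of those probe sets, set per array at 5.54, 5.54 and 5.55 in replicates 1, 2 and 3. Stricter limits were their 99th percentile (6.28, 6.24 and 6.33) and the 95th percentile of 52 markers of unrelated tissues such as liver, muscle and brain, called silent tissue genes (6.35, 6.33 and 6.36). Probe sets bind with different strength, so a call is a rough statement of detection, and levels of single genes were not ranked against each other. Of the 52 silent tissue genes, 13 (25%) also passed the 95th percentile limit and 4 the 99th, so a gene just above the lower limit is not shown to be expressed. In a bulk culture, fewer cells of a type and less RNA per cell cannot be told apart.

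Of the 35 genes, 24 (68.6%) were above background, where 60.5% of all genes were. Above the 99th percentile there were 18 (51.4%), against 46.2% of all genes, and above the silent tissue gene limit 17 (48.6%), against 45.7%. These shares lie near those of genes in general, so detection as such did not set the families apart. The median level was 6.44 log2 units over the 35 genes and 6.12 over all genes, which compares different probe sets and is only a description. The families were detected unevenly. The receptor side, of plexins, neuropilins and plexin domain genes, had 12 of 13 genes above background. The semaphorins had 11 of 20, near the 60.5% of all genes. Above the 99th percentile these counts were 10 of 13 and 7 of 20, and above the silent tissue gene limit 9 of 13 and 7 of 20.

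**Figure D1:**
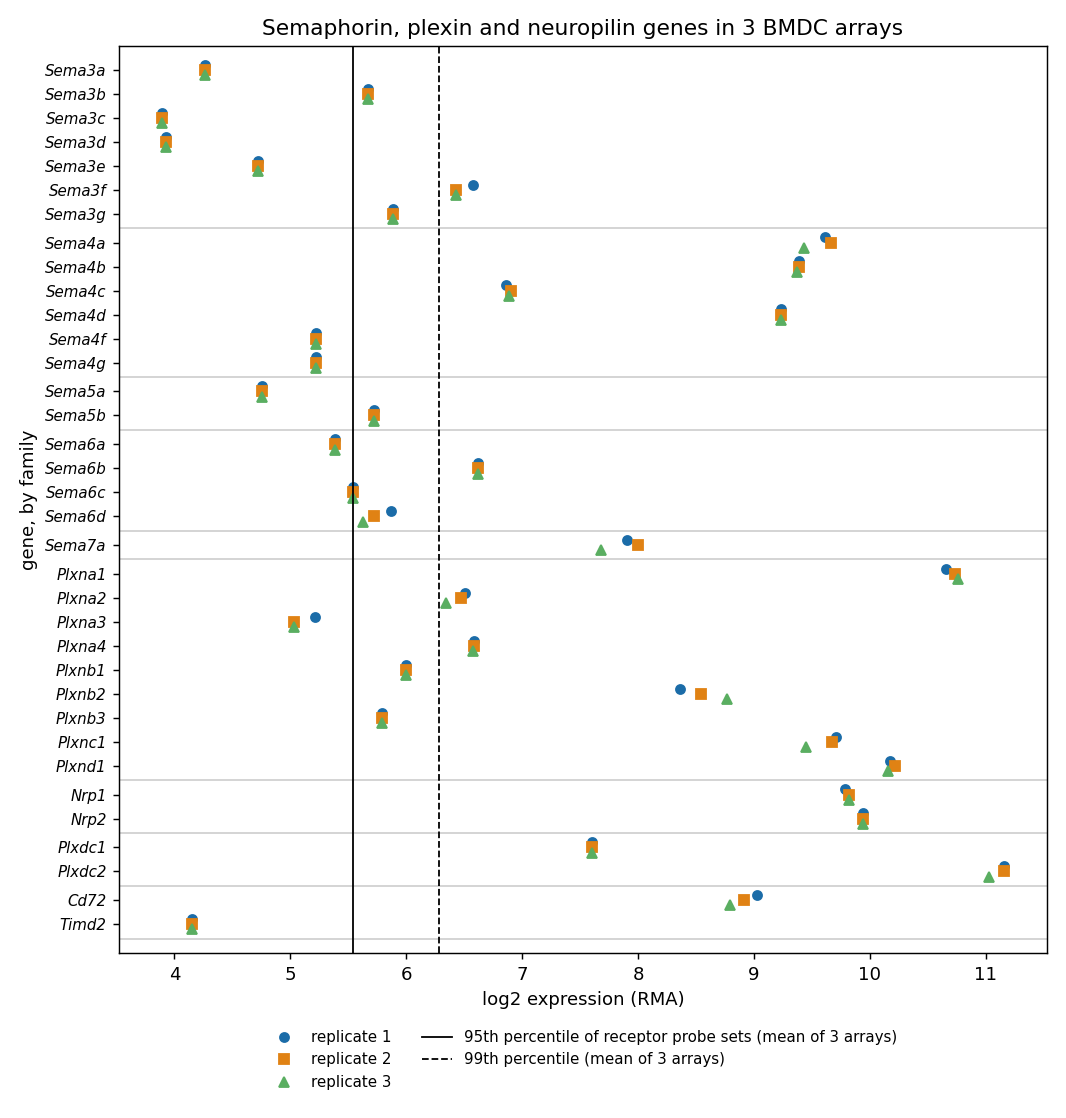
Log2 expression (x axis) of each of the 35 genes (y axis, by family) in replicates 1, 2 and 3 (points), with the mean over arrays of the 95th (solid line) and 99th (dashed line) percentile of the receptor probe sets. Sema4a to Sema4d, Sema7a, 6 of 9 plexins and both neuropilins lie to the right of both lines, and most class 3 semaphorins lie left of the dashed line.

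Class 4 semaphorins, which span the membrane, were detected in 4 of 6 cases under each of the 3 limits. These limits were passed by 60.5%, 46.2% and 45.7% of all genes, and 6 genes give only a rough share. Sema4a, a costimulatory ligand that dendritic cells present to T cells, had 9.61, 9.66 and 9.43 in replicates 1, 2 and 3 (9.57 ± 0.12, SD, n = 3). Replicate 3 was the lowest, 0.23 log2 units under replicate 2. Sema4d, the CD100 antigen that binds plexin B1 and CD72, had 9.24 in each array. A second probe set of Sema4d had 7.45 in each array, also above all 3 limits, so the call did not hang on the choice while the level did. Sema4b, a further membrane semaphorin, had 9.39, 9.39 and 9.37. Sema4c, a ligand of plexin B2, lay closer to the limits at 6.86, 6.90 and 6.89 (6.88 ± 0.02, SD, n = 3), with arrays that differed by at most 0.04. Sema4f and Sema4g were below background at 5.22 in each array.

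Sema7a, the single class 7 semaphorin, is lipid-anchored and binds plexin C1 and integrins with the beta-1 chain. It had 7.909, 8.002 and 7.679 in replicates 1, 2 and 3 (7.86 ± 0.17, SD, n = 3). Replicate 3 was lowest, 0.32 log2 units under replicate 2, and all 3 values lay well above every limit.

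Secreted class 3 semaphorins were mostly at or near background. Above the 95th percentile were 3 of 7 (60.5% of all genes) and above the 99th 1 of 7 (46.2%). That one was Sema3f, which acts through neuropilin-2, at 6.58, 6.43 and 6.43 (6.48 ± 0.08, SD, n = 3). Sema3b (5.67 in each array) and Sema3g (5.88 in each array), both also secreted, passed only the lower limit. Sema3a, the classic repellent of axons, had 4.26 in each array. Sema3e, which binds plexin D1 without a neuropilin, had 4.72 in each. Sema3c and Sema3d were also below background, at 3.89 and 3.92. These 4 undetected genes lie on chromosome 5 in the RefSeq gene order: no protein-coding gene separates Sema3d from Sema3a, 3 separate Sema3a from Sema3e, and 15 separate Sema3e from Sema3c. Sema3b and Sema3f are likewise near each other on chromosome 9, with 3 protein-coding genes between them.

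Classes 5 and 6 gave few clear detections. Sema6b, a ligand of plexin A4, had 6.62 in each array on both of its probe sets and passed all 3 limits. Sema6d, a ligand of plexin A1, had 5.87, 5.73 and 5.63 in replicates 1, 2 and 3 (5.74 ± 0.12, SD, n = 3). It was thus above the 95th percentile but not the 99th, and in replicate 3 by only 0.08 log2 units. Sema5b had 5.72 in each array and passed the lower limit alone, and Sema5a (4.76) and Sema6a (5.39) were below it. Sema6c had 5.54 in each array. It was above the limit in 2 arrays and under that of replicate 3, which makes it the nearest gene outside the call, while Sema6d was the nearest inside.

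**Figure D2:**
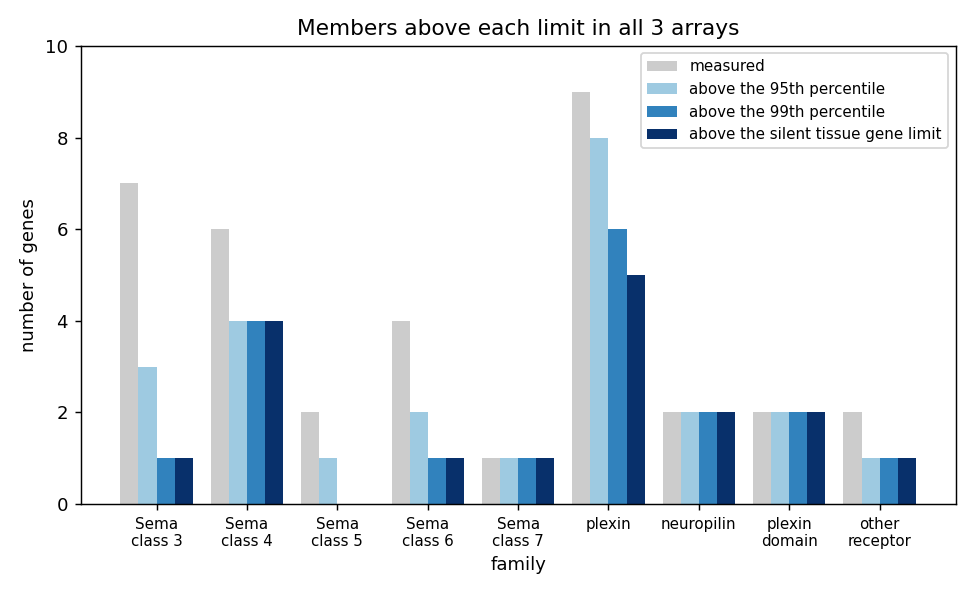
Number of genes (y axis) in each family (x axis) that were measured and that exceeded each limit in all 3 arrays (bars). Counts for class 4, class 7, neuropilins and plexin domain genes are equal under the 3 limits, and those for class 3 fall from 3 to 1.

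Plexins were above background in 8 of 9 cases, 6 of them also above the 99th percentile and 5 above the silent tissue gene limit. Of all genes 60.5%, 46.2% and 45.7% passed these limits, and 9 genes give only a rough share. Plxna1, which in dendritic cells and osteoclasts works with the Trem2 and Tyrobp complex, had 10.66, 10.74 and 10.76 in replicates 1, 2 and 3 (10.72 ± 0.05, SD, n = 3). Plxnd1, a receptor of Sema3e and Sema4a, had 10.18, 10.21 and 10.15 (10.18 ± 0.03, SD, n = 3). Plxnc1, the receptor of Sema7a, had 9.71, 9.67 and 9.45 (9.61 ± 0.14, SD, n = 3). The 3 arrays of Plxna1 and of Plxnd1 lay close together, whereas Plxnc1 was lower in replicate 3, by 0.27 log2 units against replicate 1.

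Plxnb2, a receptor of Sema4c and Sema4d, had 8.36, 8.54 and 8.76 (8.56 ± 0.20, SD, n = 3). It was highest in replicate 3, by 0.40 log2 units or 1.32-fold over replicate 1, the widest span among the 35 genes. The other B plexins passed only the lower limit: Plxnb1, the main receptor of Sema4d, had 6.00 in each array and Plxnb3, a receptor of Sema5a, had 5.79 in each. Plxna4, which binds class 6 semaphorins and pairs with neuropilins, had 6.59, 6.59 and 6.58, above all 3 limits. Plxna2, a receptor of Sema6a, had 6.51, 6.47 and 6.34 (6.44 ± 0.09, SD, n = 3), above the 99th percentile but not above the silent tissue gene limit in replicate 3. Plxna3 was the single plexin below background, at 5.22, 5.03 and 5.03 (5.09 ± 0.11, SD, n = 3).

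Both neuropilins were detected far above the limits. Nrp1, the co-receptor of Sema3a and of VEGF, had 9.79, 9.82 and 9.82 (9.81 ± 0.02, SD, n = 3). Nrp2, the co-receptor of Sema3f, had 9.94 in each array. Both plexin domain genes were detected as well. Plxdc2, a membrane protein named for its plexin-like domain, had 11.16, 11.16 and 11.02 (11.11 ± 0.08, SD, n = 3), with replicate 3 lowest. Its relative Plxdc1 had 7.60 in each array.

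The further receptors went opposite ways. Cd72, an inhibitory receptor of B cells that binds Sema4d, had 9.03, 8.92 and 8.80 (8.91 ± 0.12, SD, n = 3). Timd2, a receptor reported for Sema4a, was below background at 4.15 in each array. Of 5 measured B cell markers, 2 were above background, beside 60.5% of all genes, and 0 above the 99th percentile. Cd79a was at 4.59, 4.59 and 4.26 and Ms4a1 at 3.80 in each array. The 2 above background were Cd79b, at 6.41, 6.40 and 6.23 and above the 99th percentile in 2 of the arrays, and Pax5, at 5.64 in each array. Which cells of the culture carried the Cd72 signal was not tested.

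Ligands and receptors were also read as pairs. A list of 19 pairs reported to bind was chosen, which is not complete. Sema3b, Sema4b and Plxna3, for example, are in none of them, and the counts depend on the list. Of the 19 pairs, 11 had both partners above background, 7 only the receptor side, 1 only the ligand and 0 neither. Of all genes 60.5% were above background, so a count of double calls says little by itself. The pair with only a ligand was Sema4a with Timd2, and the other listed receptors of Sema4a, Plxnd1 and Plxnb1, were above background. With the 99th percentile as the limit, both partners passed in 7 pairs, and the same 7 passed the silent tissue gene limit. These were Sema3f with Nrp2, Sema4a with Plxnd1, Sema4c with Plxnb2, Sema4d with Plxnb2, Sema4d with Cd72, Sema6b with Plxna4 and Sema7a with Plxnc1. The pair of Sema6d and Plxna1 had only its receptor above each of these limits, and pairs of Sema4d and of Sema4a with Plxnb1 had only the ligand. Pairs share genes and are not separate observations, and RNA levels do not show binding.

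The promoters of detected and undetected genes were set side by side. RefSeq windows (build GRCm38.p6) were matched by gene identifier for 28 of the 35 genes, with 40 windows in all, since some genes have several start sites. The windows of 2 starts of Sema4a overlap. The 250 bases before each start were searched on both strands for GAGGAA, a core of sites for PU.1, the factor of myeloid cells, and for TTCNNNGAA and TTCNNNNGAA, the spacings that STAT5 and STAT6 prefer. These STATs act downstream of GM-CSF and IL-4. GAGGAA and TTCNNNNGAA can overlap, as in the Sema4f window. GAGGAA was found in 11 of 28 windows of genes above background (39.3%) and in 4 of 12 windows of the other genes (33.3%), beside 23.3% of all 32851 windows. TTCNNNNGAA was found in 0 of the 28 and in 5 of the 12 (41.7%), beside 5.85% of all windows. The 5 were windows of Plxna3, Sema3a, Sema3e, Sema4f and Timd2. TTCNNNGAA was found in 0 of the 40 windows and in 7.02% of all. The windows of genes above background had a median GC content of 64.2%, those of the others 52.8% and all windows 52.4%. A match is a run of letters, not a shown binding site.

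The windows of the receptors Plxnc1 (chr10:94944846-94945095, minus strand) and Plxnd1 (chr6:115995006-115995255, minus strand) and of 1 start of the ligand Sema4a (chr3:88461183-88461432, minus strand) are shown as windows of detected genes with 2 GAGGAA matches each. The window of Sema4f, which was below background, also holds 2 and is not printed. That of Sema3a (chr5:13396534-13396783, plus strand) is shown as an undetected ligand with a TTCNNNNGAA match. All are 5′ to 3′ along the gene and end at the base before the start. Capitals mark the matches, and TTCCTC is GAGGAA on the other strand.
Plxnc1: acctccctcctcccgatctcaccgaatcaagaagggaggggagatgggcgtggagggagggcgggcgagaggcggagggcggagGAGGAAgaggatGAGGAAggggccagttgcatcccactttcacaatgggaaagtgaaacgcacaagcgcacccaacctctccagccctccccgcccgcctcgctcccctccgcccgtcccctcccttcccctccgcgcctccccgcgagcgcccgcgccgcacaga
Plxnd1: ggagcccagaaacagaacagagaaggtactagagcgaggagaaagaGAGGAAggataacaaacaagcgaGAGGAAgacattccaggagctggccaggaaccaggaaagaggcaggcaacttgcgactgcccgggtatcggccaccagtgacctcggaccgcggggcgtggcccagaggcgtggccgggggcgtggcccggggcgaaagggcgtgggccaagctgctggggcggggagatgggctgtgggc
Sema4a: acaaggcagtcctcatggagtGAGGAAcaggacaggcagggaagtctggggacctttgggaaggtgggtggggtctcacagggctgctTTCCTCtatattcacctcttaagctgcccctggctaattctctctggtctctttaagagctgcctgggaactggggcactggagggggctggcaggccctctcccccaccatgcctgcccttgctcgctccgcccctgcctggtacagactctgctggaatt
Sema3a: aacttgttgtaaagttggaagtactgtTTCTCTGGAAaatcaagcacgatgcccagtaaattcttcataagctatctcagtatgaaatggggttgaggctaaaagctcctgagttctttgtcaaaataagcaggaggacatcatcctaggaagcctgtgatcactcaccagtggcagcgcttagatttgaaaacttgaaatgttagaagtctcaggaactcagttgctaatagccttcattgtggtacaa
In the Plxnc1 window the matches start 166 and 154 bases before the start site, in the Plxnd1 window 204 and 181 bases, and in the Sema4a window 229 and 162 bases. The Sema3a match starts 223 bases before it. Plxnc1 and Plxnd1 have 22 and 16 CpG dinucleotides in these 250 bases and the Sema4a and Sema3a windows 2 each.

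No span in the 35 genes exceeded 0.40 log2 units, but those above background had a larger median span than such genes in general. Of the 35 genes, 19 (54.3%) had 3 identical values, where 57.1% of all genes did, so an SD of 0 is no measure of precision here. Of the 24 genes above background, 9 were identical in the 3 arrays and 15 were not, while 46.5% of all genes above background were identical. Of the 11 others 10 were identical, beside 73.3% of all genes not above background. None of the 24 (0 genes) spanned more than 0.5 log2 units, beside 2.61% of all genes above background, and 0 spanned more than 1 unit, beside 0.497%. In a set of 24 genes, 0 lies near these shares. The median span was 0.035 log2 units in the 24 and 0.0096 in all genes above background. Spans over 0.2 log2 units, a threshold chosen after the values were seen, were found in 6 of the 24, beside 11.8% of all genes above background. The 6 were Plxnb2 (0.40), Sema7a (0.32), Plxnc1 (0.27), Sema6d (0.24), Cd72 (0.23) and Sema4a (0.23).

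Among the 15 genes that differed, 10 were lowest in replicate 3 alone, where 37.8% of all such genes were. These 10 were Cd72, Plxna2, Plxna4, Plxnc1, Plxnd1, Plxdc2, Sema4a, Sema4b, Sema6d and Sema7a. Highest in replicate 3 alone were 2 of the 15, Plxna1 and Plxnb2, where 36.2% of all such genes were. Both partners of the pair of Sema7a and Plxnc1 were thus lowest in the same array, as were Sema4a and its receptor Plxnd1, the latter by only 0.03 and 0.06 log2 units against replicates 1 and 2. Sema4c and Plxnb2 did not share an order, and Sema6d was lowest in replicate 3 where its receptor Plxna1 was highest. With 10 of the 15 genes lowest in replicate 3, many pairs share that low, and nothing is read from it about pairs. Averaged over the 24 genes, replicates 1, 2 and 3 deviated from the 3-array mean by 0.015, 0.016 and -0.031 log2 units, a range of 0.047, and all genes above background had a range of 0.017. Without replicate 3 the range was 0.0011.

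**Figure D3:**
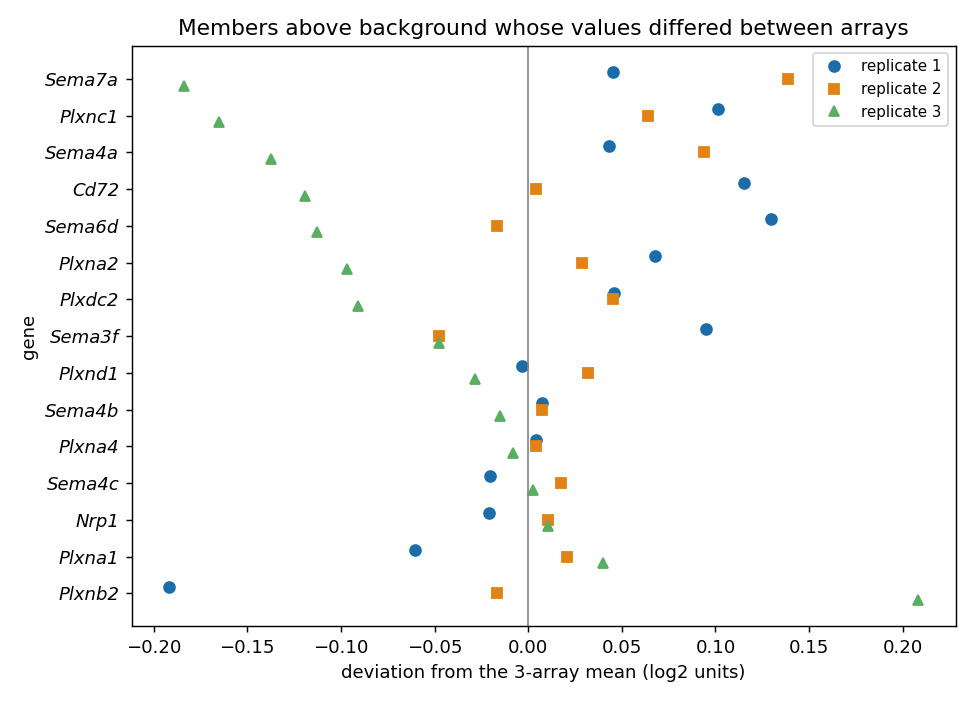
Deviation from the 3-array mean in log2 units (x axis) of the 15 genes above background whose values were not identical (y axis, ordered by replicate 3), with 1 point per replicate. Points of replicate 3 lie left of 0 for 11 genes and right of it for Sema4c, Nrp1, Plxna1 and Plxnb2.

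Markers of the cell types in the culture were read beside these differences. Of 12 dendritic cell markers, 10 were above background, where 60.5% of all genes were, with Itgax at 11.91, 11.92 and 11.91. Zbtb46 had 6.36 in each array, barely above the silent tissue gene limit. Flt3 (5.47, 5.47 and 5.24) and Xcr1 (4.99 in each array) were below background. Ccr7, a chemokine receptor of migrating dendritic cells, had 10.15, 10.50 and 9.74, the only marker of this list with a span over 0.5. Of the 15 genes above background that differed between arrays, only Sema4a, Sema7a and Plxnd1 shared its order, highest in replicate 2 and lowest in replicate 3. Irf4 (9.55, 9.67 and 9.74), Clec9a (9.27, 9.38 and 9.70) and H2-Ab1 (12.31, 12.36 and 12.42) were instead highest in replicate 3, so the list had no common order. Macrophage markers were above background in 7 of 7 measured cases, with Csf1r at 11.03, 10.94 and 10.77 and Mrc1 at 11.10, 10.91 and 10.67. Osteoclast markers were above it in 6 of 8, and which cells carried these signals was not tested. The share of 60.5% over all genes stands beside each list count here. Of the T cell list, 8 of 9 measured genes were above background, with mean deviations of 0.29, 0.03 and -0.32 log2 units in replicates 1, 2 and 3. The deviations were 0.36, 0.13 and -0.49 over 5 NK genes, 0.42, 0.11 and -0.53 over 7 cell cycle genes and 0.08, -0.01 and -0.08 over 7 macrophage genes. Mast cell and basophil genes had 0.17, 0.30 and -0.46 over 4 of 7, and megakaryocyte genes 0.27, 0.08 and -0.35 over 5 of 5. These lists were lowest in replicate 3, as were 10 of the genes described here, and their part in those differences was not tested. Neutrophil genes were above background in 4 of 10 cases, plasmacytoid dendritic cell genes in 3 of 6, stromal genes in 4 of 10, endothelial genes in 5 of 8 and erythroid genes in 1 of 3. The deviations over the genes called were at most 0.08 in size, but a gene that fell under the limit in 1 array was not called and is not in them. Of the neutrophil list, Lcn2 (7.98, 6.69 and 5.12), Ly6g (6.73, 6.80 and 4.86), Retnlg (7.35, 7.11 and 5.55) and Cxcr2 (6.17, 6.27 and 5.42) were lowest in replicate 3 and under the limit there. Of the mast cell list the same was true of Cpa3 (7.38, 7.54 and 5.38) and Mcpt8 (5.88, 5.97 and 4.68). Of the stromal list, Dcn (8.12, 5.36 and 5.41), Sparc, Bgn and Lox were highest in replicate 1 and below the limit in at least 1 other array, so they were not called.

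**Figure D4:**
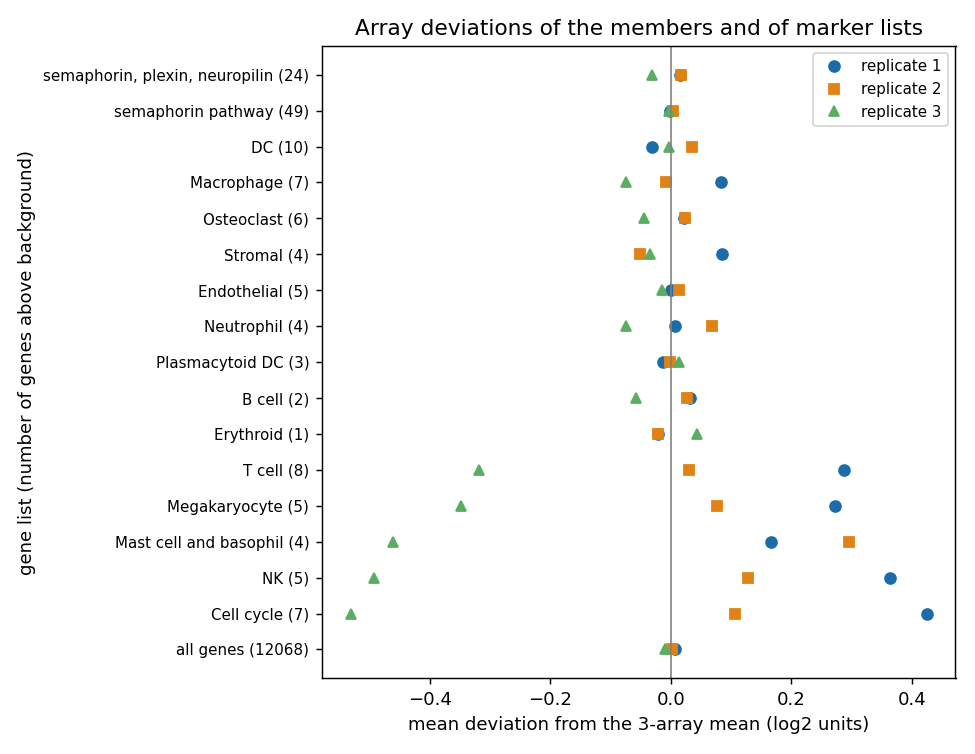
Mean deviation from the 3-array mean in log2 units (x axis) over the genes above background of each list (y axis, with the number of genes), 1 point per replicate. The semaphorin, plexin and neuropilin genes stay within 0.031 of 0, and all genes lie nearer to it, at 0.0077, 0.0019 and -0.0096 in replicates 1, 2 and 3. T cell, NK, mast cell, megakaryocyte and cell cycle lists reach -0.32 to -0.53 in replicate 3.

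Other genes of semaphorin signalling were taken from a list of 67, of which 64 had a probe set of their own. Of these, 49 were above background and 42 above the 99th percentile, beside 60.5% and 46.2% of all genes. By role, 11 of 15 co-receptors and partners, 3 of 6 neuropilin ligands, 13 of 15 GTPases and their regulators, 14 of 18 effectors, 6 of 7 proteases and 2 of 3 matrix and other partners were above background. Tyrobp, the DAP12 adaptor that joins plexin A1 and Trem2, had 11.95, 11.96 and 11.82 in replicates 1, 2 and 3. Trem2 had 10.43, 10.53 and 10.53. Both partners of Plxna1 were thus detected along with it. Itgb1, the integrin chain that binds Sema7a, had 10.02, 10.01 and 10.05, and Met, a receptor kinase that joins B plexins, had 8.79, 8.89 and 8.91.

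Among the 49 detected pathway genes, 2 spanned more than 0.5 log2 units, beside 2.61% of all genes above background. Vegfa, a growth factor that binds neuropilin-1, had 9.07, 9.49 and 10.09, highest in replicate 3 and 1.02 log2 units above replicate 1. L1cam, an adhesion molecule that joins neuropilin-1 in the response to Sema3a, had 6.90, 6.70 and 6.33, lowest in replicate 3. Nrp1 itself differed by 0.03 over the same arrays.

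**Figure D5:**
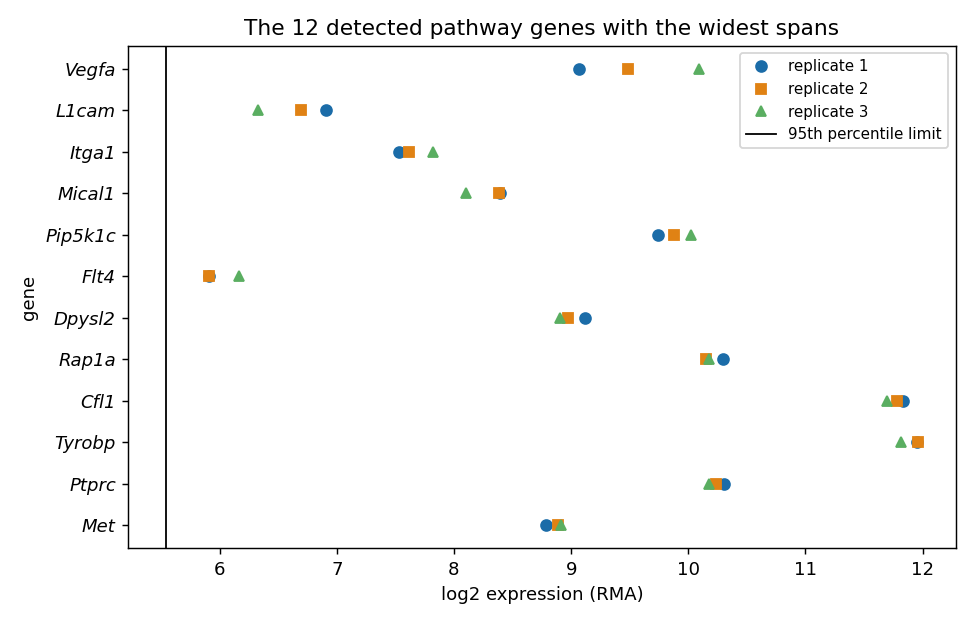
Log2 expression (x axis) of the 12 pathway genes above background with the widest spans (y axis), 1 point per replicate, with the 95th percentile limit as a line. Vegfa is highest and L1cam lowest in replicate 3, and all other spans are below 0.5.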

How the data were processed

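From 150 ng of total RNA, biotin-labelled targets were made for whole-transcript arrays, per the labels' protocols. The authors deposited log2 expression values, and the submitters' processing notes name RMA. That method corrects the background, quantile normalizes the arrays and summarizes probes by median polish. The version and the genome build are not given in the sources used here. Scanner files were not analysed. The array medians were 5.91, 5.91 and 5.91, so the values are uncentred.

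The platform annotation gives 1 gene for 21789 of 35556 probe sets, several for 1621 and lists no entry for 12146. Only the first kind was used, and the highest-mean probe set stands for its gene. All 35 genes matched a RefSeq gene table by Entrez identifier. Calls, spans and deviations were computed in Python (version 3.11.15, pandas 2.3.3, numpy 2.4.6) and checked on simulated data. Median polish can leave values identical between arrays, so no variance test was run, and the design holds no contrast.

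The genes, lists and tests were chosen with earlier results of these data known. The rule for naming took every gene of the families, 5 fixed pathway genes and those spanning over 0.5 log2 units, and the markers. Alternatives were the limit, the probe set, the arrays and the span threshold.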

Additional observations from a re-analysis of the deposited data

How the results depend on the processing

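The number of genes above background was 24. It was 18 with the 99th percentile limit, 17 with the silent tissue gene limit, 25 with a call on the mean (Sema6c added), 24 with the lowest probe set or the mean over probe sets, and 24 to 25 without each replicate. The 49 pathway genes became 42, 42 and 50 under the first 3 of these and 49 to 50 without each replicate. No gene of the families spanned more than 0.5 or 1 log2 units under the alternatives run, including those without each replicate (0 to 0), and 6 spanned more than 0.2, a threshold added after the data were seen. The range of the mean array deviation, 0.047, was 0.075 over genes with distinct values, 0.057 over genes above the 99th percentile, and 0.0011 to 0.047 without each replicate, the low value without replicate 3. Another choice of probe set could move the level of Sema4d alone among the 24, since 22 have 1 probe set and both of Sema6b hold the same values. Sema4d was at 7.45 with its lowest probe set and 8.35 with the mean of both, against 9.24. No paired analysis was possible because the samples form 1 group. Array signal limits calls near background, where 6 genes lay between the 95th and 99th percentile limits.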

Other observations

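Sema4f and Sema4g, genes on different chromosomes, were listed at the same value, 5.22 in each array, and the endothelial marker Emcn at the same 3.89 as Sema3c. Of the 37 probe sets of these families, 17 shared all 3 values with at least 1 other probe set, as did 13611 of all 35556 (38.3%).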
